A study of Mus musculus with 12 samples.

Results

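The genes described here encode the enzymes that remove superoxide and peroxides, namely the superoxide dismutases Sod1, Sod2 and Sod3, catalase (Cat) and the glutathione peroxidases Gpx1, Gpx3, Gpx4, Gpx7 and Gpx8. They were taken by gene symbol from a table of 54532 genes, where all 9 were found, and 8 of them were among the 15122 genes with enough counts to be tested. Gpx7 was not. The table holds RNA sequencing of C2C12 cells, a line of mouse myoblasts, in 4 groups that differ in the siRNA they received at 30 nM, 48 h before harvest. These were siCONTROL, siKEAP1 to deplete Keap1 mRNA, siCCNF to deplete that of Ccnf, and siKEAP1/siCCNF for both at once, each with 3 biological replicates, which makes 12 libraries. The sources used here do not give which Ccnf siRNA these libraries received, nor whether siKEAP1/siCCNF held 30 nM per siRNA or 30 nM combined. All groups were kept in medium that the labels give as 5% serum, and all were transfected, so no group shows cells without siRNA. Nothing says that the replicates came from separately thawed cultures, so the p-values measure the spread between these libraries.

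Superoxide dismutases turn superoxide into hydrogen peroxide and oxygen. Catalase breaks hydrogen peroxide down in peroxisomes, and glutathione peroxidases reduce hydrogen peroxide or lipid peroxides with electrons from glutathione or other thiols. KEAP1 is the substrate adaptor through which the transcription factor NRF2 is kept low, and NRF2 switches on genes of glutathione synthesis and peroxide removal. CCNF (cyclin F) is the substrate adaptor of another ubiquitin ligase. The sequencing addressed which genes respond to the depletion of either adaptor or of both in myoblasts, and whether CCNF bears on their differentiation by way of NRF2.

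The libraries held 18464209 to 37743198 counts. The siRNA targets fell where labelled, since Keap1 lay at 87.8 ± 3.05 CPM (the count scaled to the library's total, mean ± SD, n = 3) in siCONTROL, 12.6 ± 0.279 in siKEAP1, 85.1 ± 4.35 in siCCNF and 24.1 ± 2.56 in siKEAP1/siCCNF, and Ccnf at 81.1 ± 3.99, 59.4 ± 4.83, 20.5 ± 0.778 and 24.5 ± 1.01. Keap1 was thus less depleted in siKEAP1/siCCNF than in siKEAP1. Ccnf was also lower in siKEAP1, which is not labelled to deplete it, than in siCONTROL (log2 fold change -0.45, adjusted p = 0.00024). Myoblast identity was checked on 6 markers, whose summed level was 1396 to 1615 CPM in siCONTROL, 858 to 887 in siKEAP1, 634 to 645 in siCCNF and 615 to 704 in siKEAP1/siCCNF. The summed level of 6 myotube markers was 52.2 to 122, 2.72 to 3.32, 14.6 to 21.2 and 5.91 to 6.75 CPM in the same order. Of the 5 tested myotube markers, 5, 4 and 5 fell in siKEAP1, siCCNF and siKEAP1/siCCNF, where 20.2%, 25.4% and 23.6% of all genes fell. Every myoblast marker also fell in each depleted group, by log2 fold changes from -0.41 (Itga7 in siKEAP1) to -1.85 (Cdh15 in siKEAP1/siCCNF). In such bulk RNA, fewer differentiating cells and less RNA of a gene per cell cannot be told apart, and the part of this shift in the results below was not tested. The myotube marker Ckm was too low to be tested. It held 8 to 23 counts per library in siCONTROL, 0 in siKEAP1, 1 to 3 in siCCNF and 0 to 6 in siKEAP1/siCCNF. Markers of leukocytes, endothelium, epithelium, fat and liver summed to at most 0.648 CPM in any library. In siCONTROL replicate 1 and siKEAP1/siCCNF replicate 3, levels relative to the mean of their own siRNA group followed gene length, so results are also given without both. Across 15122 genes, which are not independent, r was -0.31 and -0.28, against -0.09 to 0.21 in the others. Deviations within a group cancel out, so the other libraries of these groups tend to the opposite sign.

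Gpx1, Gpx3 and Gpx4 are selenoenzymes, in which a UGA codon inside the reading frame is read as selenocysteine, the residue that reacts with the peroxide. The annotation marks such a codon in these 3 genes and none in Gpx7, Gpx8, Cat or the superoxide dismutases. The 27 bases around each are shown because they set the selenium-dependent members apart from the rest, in the coding direction with the selenocysteine codon in capitals (positions are the codon's, GRCm38, plus strand, codons counted from the start codon of the principal transcript).
Gpx1, codon 47 of 201, chr9:108339451-108339453: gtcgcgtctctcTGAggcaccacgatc
Gpx3, codon 73 of 226, chr11:54907256-54907258: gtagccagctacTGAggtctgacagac
Gpx4, codon 73 of 197, chr10:80054737-80054739: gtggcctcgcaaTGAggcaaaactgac

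NRF2 binds DNA at the antioxidant response element, whose core is TGACNNNGC. RefSeq promoter windows (GRCm38.p6, 250 bases before to 50 after each start) were searched for this core on both strands. Windows were found for every member but Sod3, with 4 for Gpx4. The core was found in 1 of the 8 genes with a window, Sod1, on the minus strand with its far end at position -56 from the RefSeq start. That stretch is shown because it is the one match, on the plus strand with the core in capitals.
Sod1, chr16:90220696-90220725: gccaaggtggGCGTGGTCAgactcaggcct
Of all 32851 windows, 12.4% held the core, and a window without it says nothing about elements farther away.

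Read counts compare a gene between groups, while levels of different genes can be compared only per length. By the deposited FPKM (fragments scaled to gene length and library size), the siCONTROL order was Gpx1 at 196 ± 18.9, Gpx4 at 153 ± 29.4, Gpx8 at 121 ± 13.6, Sod1 at 57.7 ± 11.1, Gpx3 at 53.4 ± 1.64, Sod3 at 36.2 ± 0.0764, Cat at 26.8 ± 1.85, Sod2 at 6.22 ± 0.431 and Gpx7 at 0.119 ± 0.107. Sod1 and Gpx3 did not differ beyond their spread, and the ranges of the Gpx1 and Gpx4 libraries overlapped. The lengths behind these values span all annotated exons of a gene, which for Sod1 is 3970 bases against 641 in its principal transcript, for Sod2 10008 against 5861 and for Gpx4 1724 against 959. Per kilobase of the principal transcript, a scale added after the data were seen, the siCONTROL order was led by Sod1 at 360 ± 69.1 CPM per kilobase, followed by Gpx4 at 277 ± 53.0 and Gpx1 at 266 ± 25.4, whose spreads overlap, and by Gpx8 at 123 ± 13.7. Gpx3 at 61.2 ± 1.92, Sod3 at 36.4 ± 0.167, Cat at 27.0 ± 1.89, Sod2 at 10.7 ± 0.722 and Gpx7 at 0.120 ± 0.108 kept their order. Sod2 stood below every member but Gpx7 on both scales.

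**Figure D1:**
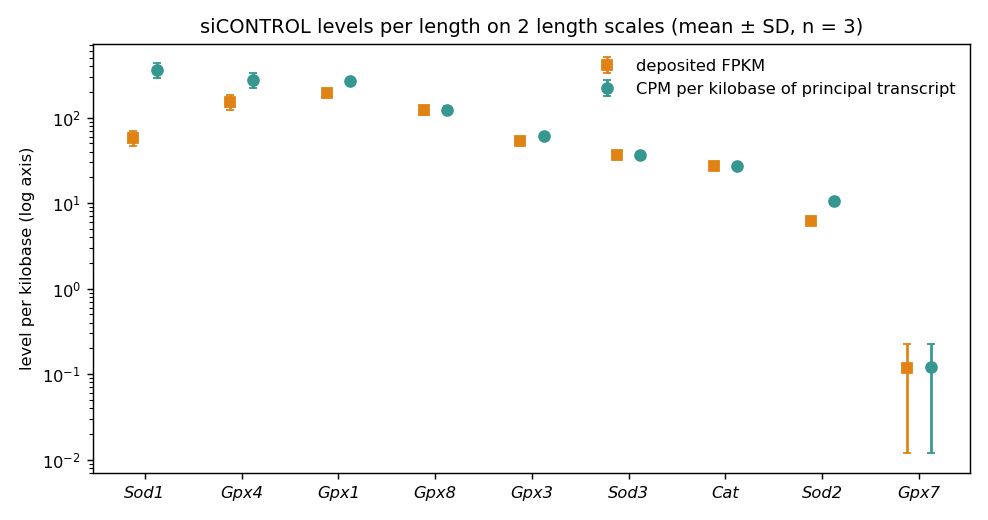
Levels per kilobase in siCONTROL (y axis, logarithmic) of the 9 genes (x axis), as the deposited FPKM (squares) and as CPM per kilobase of the principal transcript (circles), mean ± SD of 3 libraries. Sod1 moves from 57.7 to 360 between the scales, whereas Cat and Sod3 hardly move.

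After KEAP1 depletion, 7 of the 8 tested genes rose and Gpx3 fell, where 20.2% of all tested genes rose and 20.2% fell (40.4% called at an adjusted p under 0.05). Cat alone changed more than 2-fold, which 11.4% of all genes did. The members' median log2 fold change was 0.53 against -0.01 over all genes, and for 7 members the 3 libraries of each group did not overlap, as for 51.5% of all genes. After CCNF depletion, 6 members changed (47.8% of all genes), with Sod2, Sod3 and Gpx8 higher (22.4% of all genes) and Sod1, Cat and Gpx4 lower (25.4%). Their median was -0.07 against 0.01 over all genes, none passed 2-fold (11.3% of all genes), and the groups did not overlap for 6 (56.4%).

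In siKEAP1/siCCNF against siCONTROL, 6 members changed (44.1% of all genes). Sod1, Sod2, Sod3, Cat and Gpx8 were higher (20.6% of all genes) and Gpx3 was lower (23.6%), none by more than 2-fold (10.2%), with a median of 0.29 against 0.01 and 5 members whose groups did not overlap (48.4%). Between siKEAP1/siCCNF and siKEAP1, 6 members differed (50.9% of all genes), with Sod3 and Gpx3 higher (24.1%) and Sod1, Cat, Gpx1 and Gpx4 lower (26.8%), Cat by more than 2-fold (14.5%). For 6 members these groups did not overlap (60.9%). Between siKEAP1/siCCNF and siCCNF, 3 members differed (5.28% of all genes), with Sod1 and Cat higher (3.05%) and Gpx3 lower (2.23%), none past 2-fold (0.727%), and the groups did not overlap for 5 (25.8%). These comparisons share libraries, so their calls are not independent of each other.

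**Figure D2:**
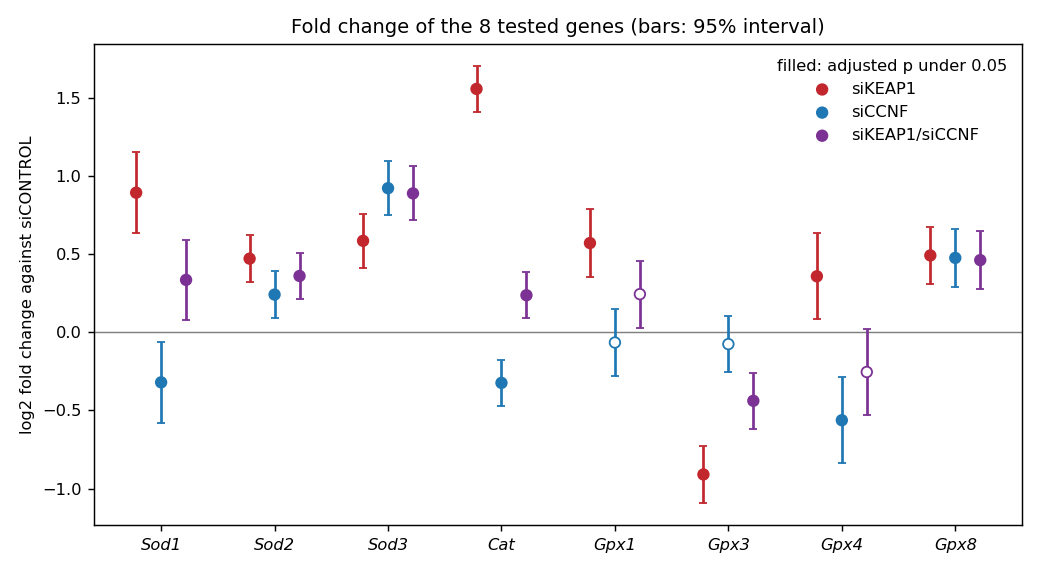
Log2 fold change against siCONTROL (y axis) of the 8 tested genes (x axis) in siKEAP1, siCCNF and siKEAP1/siCCNF, with bars for the 95% interval and filled points for an adjusted p under 0.05. Cat stands highest in siKEAP1 at 1.56 and Gpx3 lowest at -0.91, while the 3 points of Gpx8 lie together near 0.5.

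Sod1 (ENSMUSG00000022982, chr16:90220754-90226329, plus strand, GRCm38 as for all members) encodes the copper-zinc dismutase of the cytosol. Its level was 281, 213 and 198 CPM in siCONTROL, 437, 435 and 414 in siKEAP1, 198, 173 and 184 in siCCNF, and 272, 268 and 334 in siKEAP1/siCCNF. The siKEAP1 libraries lay above all others, and siCONTROL replicate 1 lay inside the range of siKEAP1/siCCNF. Sod1 rose in siKEAP1 by a log2 fold change of 0.89 ± 0.12 (SE, adjusted p = 4.8e-05). It was 0.56 ± 0.12 lower in siKEAP1/siCCNF than in siKEAP1 on the log2 scale (adjusted p = 0.0015) and 0.66 ± 0.12 higher than in siCCNF (adjusted p = 0.0062). The smaller differences from siCONTROL, -0.32 ± 0.12 in siCCNF (adjusted p = 0.040) and 0.34 ± 0.12 in siKEAP1/siCCNF (adjusted p = 0.035), rested on few libraries. The first lost its call without any 1 of 6 libraries (siCONTROL replicate 1, siCCNF replicate 2 or 3, or siKEAP1 replicate 1, 2 or 3), with log2 fold changes of -0.15, -0.27, -0.31, -0.32, -0.32 and -0.32, and the second without siCONTROL replicate 2 or 3 or siKEAP1/siCCNF replicate 3, with 0.27, 0.23 and 0.22. The first was also lost with no filter on low counts (adjusted p = 0.052), by limma (0.063 and 0.066 with the smaller and the larger pseudocount), with the gene length trend removed (0.077) and in a fit of the compared groups alone (0.078), and the second in such a fit (0.11). Without siCONTROL replicate 1 and siKEAP1/siCCNF replicate 3 together they were -0.15 (adjusted p = 0.015) and 0.39 (adjusted p = 4.9e-06). A processed pseudogene, Gm8566, matches 465 bases of Sod1 at 97.8% identity and held counts equal to 1.93 to 2.69% of those of Sod1, so a small part of its reads may be placed elsewhere.

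Sod2 (ENSMUSG00000006818, chr17:13006846-13040063, plus strand) encodes the manganese enzyme of the mitochondrial matrix. Its level was 66.9, 62.7 and 58.5 CPM in siCONTROL, 83.4, 87.9 and 89.4 in siKEAP1, 71.6, 76.6 and 74.1 in siCCNF, and 75.2, 82.7 and 83.6 in siKEAP1/siCCNF. All 9 depleted libraries lay above all 3 control libraries, and siKEAP1 overlapped with siKEAP1/siCCNF. Sod2 rose by 0.47 ± 0.07 in siKEAP1 (adjusted p = 0.00010), 0.24 ± 0.07 in siCCNF (adjusted p = 0.011) and 0.36 ± 0.07 in siKEAP1/siCCNF (adjusted p = 0.00083). The double depletion differed from siKEAP1 by -0.11 (95% interval -0.26 to 0.04) and from siCCNF by 0.12 (-0.03 to 0.27), neither past the threshold. The siCCNF call was lost without siCONTROL replicate 3 (0.19, adjusted p = 0.054) and with the gene length trend removed (0.19, adjusted p = 0.18).

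Sod3 (ENSMUSG00000072941, chr5:52363791-52371418, plus strand) encodes the secreted copper-zinc dismutase that binds the extracellular matrix. Its level was 136, 136 and 137 CPM in siCONTROL, 213, 193 and 208 in siKEAP1, 251, 256 and 268 in siCCNF, and 253, 221 and 283 in siKEAP1/siCCNF. The groups followed each other without overlap from siCONTROL to siKEAP1 and from siKEAP1 to siCCNF, while siKEAP1/siCCNF spanned siCCNF. Sod3 rose by 0.58 ± 0.08 in siKEAP1 (adjusted p = 5.6e-05), 0.92 ± 0.08 in siCCNF (adjusted p = 7.6e-07) and 0.89 ± 0.08 in siKEAP1/siCCNF (adjusted p = 1.3e-06), its largest differences from siCONTROL being about 1.89-fold and 1.85-fold. In siKEAP1/siCCNF it was 0.30 ± 0.08 higher than in siKEAP1 (adjusted p = 0.0060) and differed from siCCNF by -0.03 (95% interval -0.20 to 0.14). Among the 8 tested members it was thus the one whose rise was greater after siCCNF than after siKEAP1 by point value. The libraries of these 2 groups did not overlap, and the difference between them was not tested.

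Cat (ENSMUSG00000027187, chr2:103453849-103485160, minus strand) encodes catalase. Its level was 65.0, 72.6 and 74.2 CPM in siCONTROL, 210, 209 and 204 in siKEAP1, 54.2, 59.6 and 55.3 in siCCNF, and 80.4, 87.6 and 81.5 in siKEAP1/siCCNF. No 2 groups overlapped, and siKEAP1 stood far above the rest. Cat rose 2.94-fold in siKEAP1 (log2 fold change 1.56 ± 0.07, adjusted p = 1.9e-09) and fell by 0.32 ± 0.07 on the log2 scale in siCCNF (adjusted p = 0.0014). In siKEAP1/siCCNF it lay 0.24 ± 0.07 above siCONTROL (adjusted p = 0.011), 0.56 ± 0.07 above siCCNF (adjusted p = 0.00030) and 1.32 ± 0.07 below siKEAP1 (log2 fold change -1.32, adjusted p = 5.8e-09), that is at 0.401 of its siKEAP1 level. The difference between siKEAP1/siCCNF and siCONTROL lost its call without siKEAP1/siCCNF replicate 2 (0.19, adjusted p = 0.064) and in a fit of those 2 groups alone (0.24, adjusted p = 0.063). The other calls of Cat held with every library left out in turn.

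**Figure D3:**
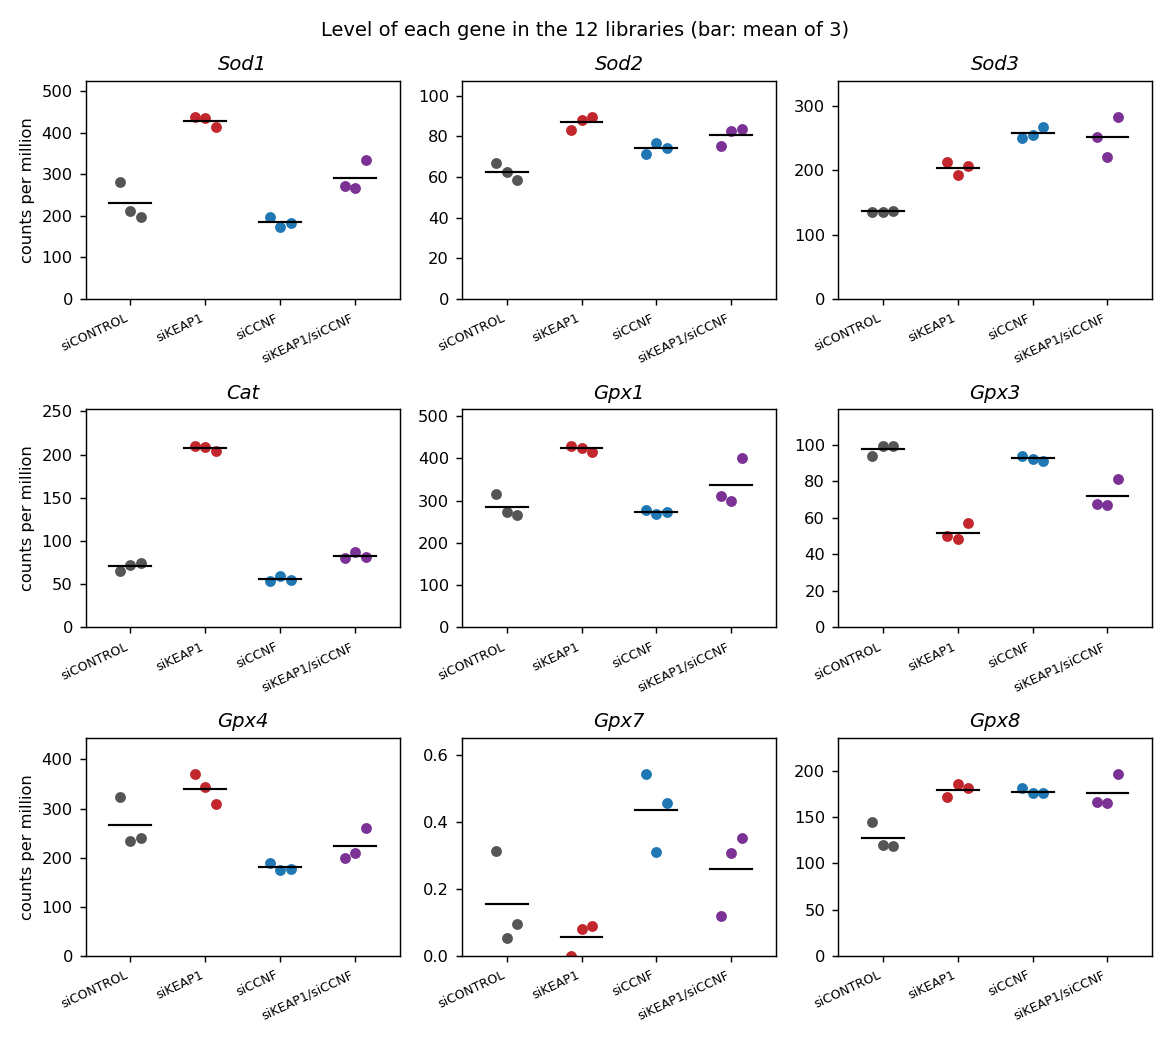
CPM (y axes, each from 0) of the 9 genes in the 12 libraries, with a point per library in replicate order and a bar for the mean of each siRNA group. Cat stands near 208 CPM in siKEAP1 against 56.4 to 83.1 in the other groups, Gpx3 is lowest in siKEAP1, Gpx8 is raised alike in all 3 depletions, and Gpx7 stays under 0.6 CPM.

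Gpx1 (ENSMUSG00000063856, chr9:108338903-108340343, plus strand) encodes the selenoenzyme that reduces hydrogen peroxide in the cytosol and mitochondria. Its level was 316, 274 and 266 CPM in siCONTROL, 430, 425 and 416 in siKEAP1, 277, 269 and 272 in siCCNF, and 311, 300.4 and 402 in siKEAP1/siCCNF. The siKEAP1 libraries lay above all others, siCCNF fell within siCONTROL, and siKEAP1/siCCNF overlapped with siCONTROL through its replicates 1 and 2. Gpx1 rose by 0.57 ± 0.10 in siKEAP1 (adjusted p = 0.00042) and differed from siCONTROL by -0.07 in siCCNF (95% interval -0.28 to 0.15) and by 0.24 in siKEAP1/siCCNF (0.03 to 0.46, adjusted p = 0.062). It was lower in siKEAP1/siCCNF than in siKEAP1 by a log2 fold change of -0.33 ± 0.10 (adjusted p = 0.014), a call lost without siKEAP1/siCCNF replicate 1 (-0.27, adjusted p = 0.066) or replicate 2 (-0.25, adjusted p = 0.066). Without both libraries that follow gene length, Gpx1 was called higher in siKEAP1/siCCNF than in siCONTROL at 0.18 (adjusted p = 0.0020). The same difference also passed without siCONTROL replicate 1 (0.32), siKEAP1/siCCNF replicate 1 (0.30) or siKEAP1/siCCNF replicate 2 (0.31) alone. It passed too with no filter on low counts (0.24), with at least 10 counts in every library (0.26) and with the gene length trend removed (0.19). With each library left out in turn it ranged from 0.097 to 0.32, with adjusted p-values as high as 0.30, so it was not stable.

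Gpx3 (ENSMUSG00000018339, chr11:54902453-54910377, plus strand) encodes the secreted selenoenzyme of plasma. Its level was 94.0, 99.1 and 99.4 CPM in siCONTROL, 50.02, 48.6 and 57.1 in siKEAP1, 94.0, 92.2 and 91.2 in siCCNF, and 67.5, 67.0 and 81.5 in siKEAP1/siCCNF. Among the 8 tested members it was the one with its lowest levels in siKEAP1, and siKEAP1/siCCNF lay between siKEAP1 and the other groups without overlap. Gpx3 fell in siKEAP1 to 0.532 of its siCONTROL level (log2 fold change -0.91 ± 0.08, adjusted p = 1.6e-06) and in siKEAP1/siCCNF to 0.738 (-0.44 ± 0.08, adjusted p = 0.00077). In siCCNF it differed from siCONTROL by -0.08 (95% interval -0.26 to 0.10). It was 0.47 ± 0.08 higher in siKEAP1/siCCNF than in siKEAP1 (adjusted p = 0.00039). It was lower than in siCCNF by a log2 fold change of -0.36 ± 0.08 (adjusted p = 0.022), a call lost without siCCNF replicate 1, 2 or 3 (-0.36, -0.38 and -0.38) or siKEAP1/siCCNF replicate 1 or 2 (both -0.32), at adjusted p-values of 0.060 to 0.092. Without both libraries that follow gene length it was -0.47 (adjusted p = 7.1e-06).

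Gpx4 (ENSMUSG00000075706, chr10:80047166-80056439, plus strand) encodes the selenoenzyme that reduces lipid hydroperoxides in membranes. Its level was 324, 233 and 240.0 CPM in siCONTROL, 370, 344 and 308 in siKEAP1, 189, 174 and 177 in siCCNF, and 200.04, 209 and 260 in siKEAP1/siCCNF. The siCCNF libraries lay below all others, whereas siCONTROL replicate 1 lay inside the siKEAP1 range. Gpx4 fell by 0.56 ± 0.13 on the log2 scale in siCCNF (adjusted p = 0.0027) and lay lower in siKEAP1/siCCNF than in siKEAP1 by a log2 fold change of -0.61 ± 0.13 (adjusted p = 0.0013). Its difference from siCONTROL in siKEAP1/siCCNF was -0.25 (95% interval -0.53 to 0.02, adjusted p = 0.13). This difference passed the threshold without siKEAP1/siCCNF replicate 3 (-0.38, adjusted p = 0.025) and with the gene length trend removed (-0.29, adjusted p = 0.016). It also passed without both libraries that follow gene length (-0.21, adjusted p = 0.013). With each library left out in turn, this difference of Gpx4 ranged from -0.38 to -0.094, with adjusted p-values as high as 0.47. Its rise in siKEAP1 was 0.36 ± 0.13 (adjusted p = 0.039) and lost its call without siCONTROL replicate 2 or 3 (0.26 and 0.28), siKEAP1 replicate 1 or 2 (0.29 and 0.35) or any siCCNF replicate (each 0.35), at adjusted p-values of 0.050 to 0.15, and also with no filter on low counts (0.35, adjusted p = 0.088) and in a fit of the compared groups alone (0.36, adjusted p = 0.069). Without both libraries that follow gene length it was 0.52 (adjusted p = 2.2e-06).

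Reads of Gpx4 cannot all be placed, since the transcribed processed pseudogene Gpx4-ps2 matches 762 of its bases at 99.7% identity and held counts equal to 17.3 to 22.4% of those of Gpx4. Gpx4-ps2 had log2 fold changes of 0.50 ± 0.08 in siKEAP1 (adjusted p = 0.00028) and -0.60 ± 0.08 in siCCNF (adjusted p = 5.3e-05). With the counts of both rows added up, no call of Gpx4 changed. The values of Gpx4 are therefore uncertain as to which locus gave part of the reads.

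Gpx7 and Gpx8 encode peroxidases of the endoplasmic reticulum that lack selenocysteine and use protein disulfide isomerases as thiol partners. Gpx8 (ENSMUSG00000021760, chr13:113042753-113046410, minus strand) lay at 144, 120.1 and 119 CPM in siCONTROL, 172, 186 and 182 in siKEAP1, 181, 176 and 177 in siCCNF, and 167, 165 and 197 in siKEAP1/siCCNF. All 9 depleted libraries lay above the 3 controls, and the 3 depleted groups overlapped. Gpx8 rose by 0.49 ± 0.09 in siKEAP1 (adjusted p = 0.00041), 0.48 ± 0.09 in siCCNF (adjusted p = 0.00043) and 0.46 ± 0.09 in siKEAP1/siCCNF (adjusted p = 0.00061). The double depletion differed from siKEAP1 by -0.03 (95% interval -0.21 to 0.15) and from siCCNF by -0.01 (-0.20 to 0.17). These intervals do not exclude differences of up to about 0.2 in size on the log2 scale. Without both libraries that follow gene length, the difference from siKEAP1 was -0.11 and passed the threshold (adjusted p = 0.028).

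Gpx7 (ENSMUSG00000028597, chr4:108400390-108406961, minus strand) held 7, 1 and 2 counts in siCONTROL, 0, 2 and 2 in siKEAP1, 19, 8 and 17 in siCCNF, and 3, 10 and 8 in siKEAP1/siCCNF. The lowest siCCNF library, at 0.311 CPM, was just under the highest siCONTROL library, at 0.314. A count of 0 in siKEAP1 replicate 1 allows a level of up to 0.139 CPM (3 counts, counting error only). Without a filter on low counts the difference between siCCNF and siCONTROL had an adjusted p of 0.16. It passed without siCONTROL replicate 1, the control library with the most counts of Gpx7 (2.46, adjusted p = 0.022). It also passed without both libraries that follow gene length, which include siCONTROL replicate 1 (2.46, adjusted p = 0.019). In the other leave-one-out fits that tested Gpx7, the adjusted p of the difference between siCCNF and siCONTROL was 0.068 to 0.22. Gpx7 was called higher in siKEAP1/siCCNF than in siKEAP1 without siCONTROL replicate 1 or 2 or siKEAP1/siCCNF replicate 1 (2.08, 2.09 and 2.41), but not in the others (adjusted p of 0.055 to 0.14). With all 12 libraries Gpx7 failed the filter on low counts. It entered leave-one-out fits only where siCCNF replicates 1 and 3, the libraries with its highest counts, were both kept. Its calls in fits with libraries left out are therefore no support for a difference. The other glutathione peroxidase genes Gpx2, Gpx5 and Gpx6, which encode the gut, epididymal and olfactory enzymes, held 0, at most 1 and 0 counts per library.

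The interaction is the difference between what siKEAP1 did in cells that also received siCCNF and what it did in control cells, and these effects share no library. It passed the threshold for 5 of 8 members (21.0% of all genes), for Gpx3 with a positive sign (10.6% of all genes) and for Sod2, Sod3, Cat and Gpx8 with a negative one (10.5%), none by more than 2-fold (6.18%). For Cat the siKEAP1 effect was 1.56 in control cells and 0.56 in CCNF-depleted cells, an interaction of -0.996 ± 0.095 (adjusted p = 1.4e-05). Cat thus still rose with KEAP1 depletion in CCNF-depleted cells, which kept part of their Ccnf mRNA, by less than in control cells. For Gpx3 the fall was -0.91 against -0.36, an interaction of 0.55 ± 0.12 (adjusted p = 0.0050). Sod3 and Gpx8, which rose with either siRNA alone, showed effects of 0.58 against -0.03 (interaction -0.62 ± 0.11, adjusted p = 0.0016) and of 0.49 against -0.01 (-0.51 ± 0.12, adjusted p = 0.0088). Their levels with both siRNAs lay 0.89 and 0.46 above siCONTROL, whereas the effects of the single siRNAs sum to 1.51 and 0.97. Sod2 had the smallest interaction called, -0.35 ± 0.10 (adjusted p = 0.020), which was lost without siCCNF replicate 2 (-0.33), siCONTROL replicate 3 (-0.30), siKEAP1 replicate 3 (-0.33) or siKEAP1/siCCNF replicate 1 (-0.30), and fell to -0.16 (adjusted p = 0.52) with the gene length trend removed.

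For the other members the difference of effects was not past the threshold. Sod1 rose by 0.89 in control cells and 0.66 in CCNF-depleted cells (interaction -0.24, 95% interval -0.60 to 0.13), Gpx1 differed by 0.57 and 0.31 (-0.26, -0.56 to 0.04) and Gpx4 by 0.36 and 0.31 (-0.05, -0.44 to 0.34). Without both libraries that follow gene length, the 8 members tested with all 12 libraries passed and Gpx7, which was tested there too, did not (-0.60, adjusted p = 0.80), where 31.2% of all genes passed, with -0.51 for Sod1 (adjusted p = 1.0e-05), -0.48 for Gpx1 (adjusted p = 9.1e-07) and -0.34 for Gpx4 (adjusted p = 0.0062). That of Sod1 also passed without siCONTROL replicate 1 alone (-0.40) and that of Gpx1 without siKEAP1/siCCNF replicate 3 alone (-0.40). Keap1 lay at 12.6 CPM in siKEAP1 and 24.1 in siKEAP1/siCCNF, and Ccnf at 81.1 CPM in siCONTROL and 59.4 in siKEAP1. The part of these differences in the interactions was not tested.

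**Figure D4:**
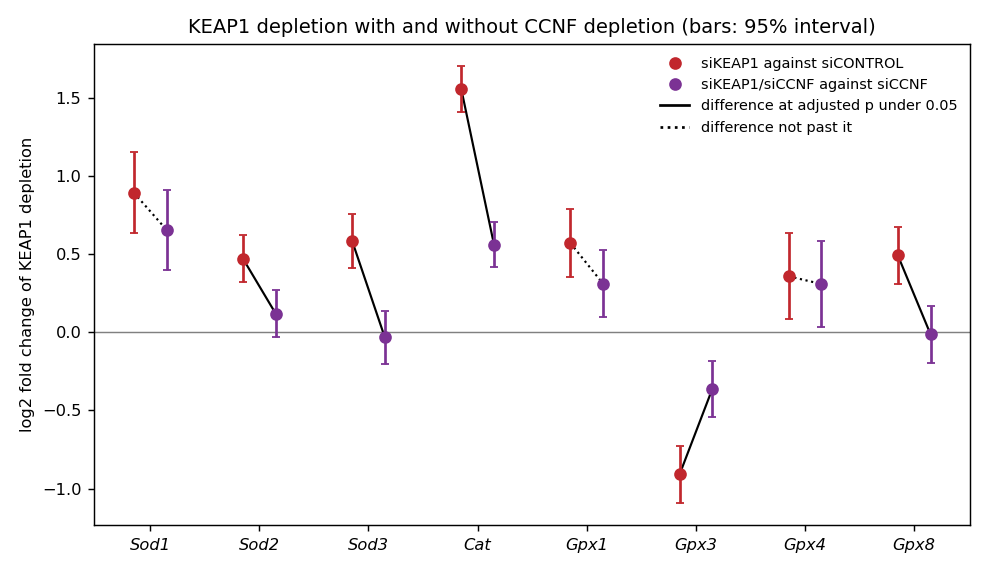
Log2 fold change on KEAP1 depletion (y axis) of the 8 tested genes (x axis) in control cells and in CCNF-depleted cells, with bars for the 95% interval, joined by a solid line where the interaction passed an adjusted p under 0.05 and by a dotted line where it did not. Cat drops from 1.56 to 0.56, Sod3 and Gpx8 drop to about 0, and Gpx3 comes from -0.91 to -0.36.

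The make-up of each family shifted with the groups, as read per kilobase of the principal transcript. Sod1 made up 88.2 ± 1.73% of the superoxide dismutase transcripts in siCONTROL, 90.6 ± 0.476% in siKEAP1, 77.9 ± 1.48% in siCCNF and 84.8 ± 0.660% in siKEAP1/siCCNF. Sod3 took 9.11 ± 1.47%, 7.41 ± 0.439%, 18.7 ± 1.22% and 12.6 ± 0.707%. The share of Sod3 in siCCNF, at 17.3% or more in each library, lay above every library of the other groups, where it reached at most 13.4%. By the table's lengths the same shares were 36.4 ± 4.02%, 31.9 ± 1.38%, 56.1 ± 1.81% and 45.3 ± 1.64%, so the size of the share depends on the length used and its order among groups does not.

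Among the glutathione peroxidases, Gpx8 made up 16.9 ± 0.196% in siCONTROL, 18.1 ± 1.15% in siKEAP1, 25.4 ± 0.168% in siCCNF and 22.3 ± 0.855% in siKEAP1/siCCNF per kilobase of the principal transcript. Gpx3 fell back from 8.51 ± 1.23% in siCONTROL to 3.41 ± 0.413% in siKEAP1, with 8.65 ± 0.114% in siCCNF and 5.94 ± 0.148% in siKEAP1/siCCNF. Gpx4 made up 37.9 ± 2.48%, 37.1 ± 2.13%, 27.95 ± 0.542% and 30.5 ± 0.722% in the same order, with no overlap between the groups that received siCCNF and those that did not. These shares were not tested.

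The pathways that feed these enzymes differed from them in size. All 6 genes of glutathione supply and reduction rose in siKEAP1 (20.2% of all genes rose), with a median log2 fold change of 2.12 against 0.53 for the members, led by Gclc, the catalytic subunit of glutamate-cysteine ligase (2.91 ± 0.09, adjusted p = 1.2e-10), and Slc7a11, the cystine importer (2.63 ± 0.16, adjusted p = 2.8e-08). In siCCNF, 4 of these 6 fell and none rose (25.4% of all genes fell), with the largest falls in Gclm, the modifier subunit of that ligase (-0.96 ± 0.07, adjusted p = 2.0e-07), and G6pdx, which supplies NADPH (-0.87 ± 0.06, adjusted p = 7.7e-08). All 6 interactions were negative and called (10.5% of all genes), with a median of -1.38, against -0.31 for the members and 0.01 over all genes. Peroxiredoxins remove peroxides through thioredoxin or glutathione. Of 7 peroxiredoxin and sulfiredoxin genes, 4 rose and 1 fell in siKEAP1 (20.2% of all genes each way). In siCCNF, 4 of these genes fell (25.4% of all genes). Prdx6 rose by 1.48 ± 0.07 in siKEAP1 (adjusted p = 3.4e-09) and changed by -1.01 ± 0.07 in siCCNF (adjusted p = 9.3e-08), while Prdx1 rose by 0.97 ± 0.10 in siKEAP1 (adjusted p = 4.4e-06) and Prdx3, the mitochondrial form, changed by -0.56 ± 0.09 in siCCNF (adjusted p = 0.00011).

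Of 10 genes for placing selenocysteine into proteins, 1 rose and 1 fell in siKEAP1 (20.2% of all genes each way), with a median of -0.09, and 4 rose and 3 fell in siCCNF (22.4% and 25.4% of all genes), with a median of 0.10. Lrp8, a receptor for selenoprotein P, rose by 1.38 ± 0.13 in siKEAP1 (adjusted p = 1.6e-06), and Pstk, a kinase that acts on the selenocysteine tRNA, changed by -0.55 ± 0.14 (adjusted p = 0.0071). In siCCNF, Sephs2, which makes selenophosphate, changed by -0.63 ± 0.13 (adjusted p = 0.0011) and Trit1, which modifies that tRNA, rose by 0.49 ± 0.10 (adjusted p = 0.0012). Of 17 other selenoproteins tested, 2 rose and 4 fell in siKEAP1 and 2 rose and 8 fell in siCCNF, beside the same shares of all genes. Sephs2, itself a selenoprotein, is in both lists, so its fall in siCCNF is counted in each. The selenoproteins thus went both ways, from Txnrd1, thioredoxin reductase of the cytosol, at 1.64 ± 0.07 in siKEAP1 (adjusted p = 2.3e-09), to Dio2, the type 2 deiodinase, at -3.02 ± 0.25 in siKEAP1 (adjusted p = 6.2e-07) and -4.08 ± 0.27 in siCCNF (adjusted p = 6.2e-08). Txnrd2, the mitochondrial reductase, changed by -1.02 ± 0.18 in siCCNF (adjusted p = 0.00043).

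For the copper enzymes Sod1 and Sod3, 0 of 4 tested copper delivery genes passed in siKEAP1 by edgeR (1 at an unadjusted p under 0.05, 1 by DESeq2 and 1 by limma). In siCCNF 1 fell, Slc31a1, the copper importer of the cell surface (log2 fold change -1.01 ± 0.06, adjusted p = 2.8e-08). Of 19 tested genes for peroxisome import and peroxisomal oxidases, the compartment of catalase, 3 rose and 3 fell in siKEAP1 (20.2% of all genes each way), with a median of -0.01, and 3 rose and 7 fell in siCCNF (22.4% and 25.4% of all genes), with a median of -0.09. Hao1, a hydroxyacid oxidase, went from 0.135 ± 0.0865 to 1.93 ± 0.848 CPM in siKEAP1 (adjusted p = 0.0017). In siCCNF, Pex11a, a peroxisome division factor, rose by 1.03 ± 0.15 (adjusted p = 9.9e-05) and Pex7, an import receptor, changed by -0.85 ± 0.13 (adjusted p = 9.9e-05).

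Of 7 tested enzymes or subunits that make superoxide or hydrogen peroxide, 3 rose in siKEAP1 (20.2% of all genes) and 1 in siCCNF (22.4%). Xdh, which encodes xanthine dehydrogenase, rose by 2.43 ± 0.33 in siKEAP1 (adjusted p = 0.00013) and 1.503 ± 0.33 in siCCNF (adjusted p = 0.0028).

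Across the 12 libraries, Sod1, Cat, Gpx1 and Gpx4 varied together on the log2 CPM scale (Pearson r of 0.79 to 0.97 for their pairs) and opposite to Gpx3 (r of -0.61 to -0.92). Sod3 varied with Gpx8 (r = 0.86) and Sod2 with Gpx8 (r = 0.86), while Sod3 and Sod1 had r = 0.0048. These values describe 12 libraries that share 4 siRNA groups and the depth and length trends of each library. Of all other tested genes, the 3 with the highest r were Adam23, Ikbkg and Aldh3a1 for Cat (each at least 0.995), Ninj1, Prdx1 and Gm21399 for Sod1 (0.982 to 0.989), Nr1h2, Them6 and Cstb for Gpx1 (0.977 to 0.979), and Adh5, Tspo and Gchfr for Gpx4 (0.984 to 0.989). They were Sh3gl1, 9530068E07Rik and Lpcat1 for Gpx3 (0.979 to 0.981), Pld3, Irak2 and Wisp2 for Sod3 (0.976 to 0.984), Prr7, Clba1 and Ctsd for Sod2 (0.967 to 0.970) and Scp2, Unc13a and Aen for Gpx8 (0.959 to 0.969).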

How the data were processed

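RNA of 12 libraries, 3 in each of 4 siRNA groups, was sequenced after poly(A) selection. Per the labels' processing notes the tools include HISAT2 and the build GRCm39, yet identifiers and positions in the deposited table equal those of GENCODE M21 on GRCm38 for 98.3% of 54409 shared genes, so positions are given on GRCm38. The counting tool is not given in the sources used here. The authors deposited raw counts per gene and FPKM values made from them with a gene length. The authors' own log2 fold changes, p-values and adjusted p-values for each depletion against siCONTROL are also in the table and were not used.

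The members, the related gene lists and the tests were chosen with earlier results of these data known. The main test was the robust quasi-likelihood test of edgeR 4.0.16 (R 4.3.3) on the counts, after filterByExpr and TMM scaling, with a mean for each of the 4 groups and all 12 libraries in 1 fit. SE values derive from the F statistic. P-values were adjusted by Benjamini-Hochberg over all 15122 genes, and a gene was called at an adjusted p under 0.05. CPM values use TMM-scaled totals and carry the SD of 3 libraries, and log2 CPM a prior count of 2. All 9 members are named, as are, from each related list in siKEAP1 and in siCCNF, up to 2 called genes with the largest change and, for each member, the 3 genes with the highest correlation. Some genes that this rule takes are not reported here. A transcript counted as similar to a member at 85% identity or more over at least 400 bases. Scripts were checked on simulated counts. In every group, replicates differed by more than sampling noise.

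The alternatives were DESeq2 1.42.0, total library sizes, no filter, at least 10 counts in every library, a replicate block, limma 3.58.1 on log2(FPKM + 1) and log2(FPKM + 0.1), a gene length spline with 5 degrees of freedom removed, the compared groups alone, a 2-fold threshold and leaving out each library. Chosen after seeing the data were leaving out siCONTROL replicate 1 with siKEAP1/siCCNF replicate 3, and adding pseudogene counts.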

Additional observations from a re-analysis of the deposited data

Results flagged for a closer look

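The effect of siKEAP1 differed between control cells and CCNF-depleted cells for 5 members, by the interaction term of the edgeR fit. It was -0.996 for Cat (adjusted p = 1.4e-05), -0.62 for Sod3 (adjusted p = 0.0016), -0.51 for Gpx8 (adjusted p = 0.0088) and -0.35 for Sod2 (adjusted p = 0.020) on the log2 scale, and 0.55 for Gpx3 (adjusted p = 0.0050). Keap1 was less depleted with both siRNAs than with siKEAP1 alone (24.1 against 12.6 CPM), and Ccnf was lower in siKEAP1 than in siCONTROL (59.4 against 81.1 CPM). The part of these differences in the 5 values was not tested.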

How the results depend on the processing

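For 48 member results (8 tested members in 6 comparisons), 1022 of the values under the alternatives kept direction and side of the threshold, 40 lost the call, 21 gained one and 13 changed sign, all 13 of them for differences that were not called. DESeq2 and the added pseudogene counts changed no call. The threshold of more than 2-fold left 1 member called in siKEAP1 and in siKEAP1/siCCNF against siKEAP1, and 0 in siCCNF, in siKEAP1/siCCNF against siCONTROL, in siKEAP1/siCCNF against siCCNF and in the interaction. Without siCONTROL replicate 1 and siKEAP1/siCCNF replicate 3 together the interaction was called for 8 members in place of 5 (31.2% of all genes in place of 21.0%). With each library left out, the count for siKEAP1/siCCNF against siCCNF was 2 to 5, in place of 3. The 5 came without siCONTROL replicate 1, a library of neither compared group. In that fit 9.14% of all genes were called for this comparison, in place of 5.28%. The cause was not tested. Signs changed for Gpx1 in siCCNF (-0.11 to 0.016 with each library left out, 0.016 without both libraries), Sod2 in siKEAP1/siCCNF against siKEAP1 (0.036 with the length trend removed), Sod3 in siKEAP1/siCCNF against siCCNF (-0.13 to 0.043), Gpx4 in the interaction (-0.22 to 0.036), and Gpx8 in siKEAP1/siCCNF against siKEAP1 (-0.11 to 0.017) and against siCCNF (-0.11 to 0.023, and 0.015 with total library sizes). A replicate block left the member counts at 8, 6, 6, 6, 3 and 5. Deviations of same-numbered libraries from their group means had 18 correlations from -0.27 to 0.20, of which 4 were over 0.1. Differently numbered libraries were not compared, so these values cannot decide whether the replicate numbers pair the libraries. Precision is set by 3 libraries per group, and for Gpx7 by its 0 to 19 counts.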
